A study of Mus musculus with 66 samples.

Results

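Voltage-gated calcium, sodium and HCN channel genes were followed through 9 knockdowns of chromatin and transcription regulators in cultured mouse neurons. The members were all genes of the count table whose symbol begins with Cacna1 or Cacna2, or is a Cacnb, Scn or Hcn subunit symbol. This gave 36 of 30084 symbols, of which 35 passed the filter on low counts. The exception was Scn4a, the skeletal muscle sodium channel, which had at most 10 counts in any of the 66 libraries. The neurons came from wildtype (WT) embryos (E16.5) separated by sex. They received lentivirus with a short hairpin RNA (shRNA) against Chd8, Med13l, Ash1l, Dnmt3a, Mbd5, Tbr1, Kdm6b, Kmt2c or Setd5, lentivirus with a nontargeting shRNA, or no virus. Each of these 11 treatments had 3 libraries per sex, and virus doses were set by the authors to leave about 50% of each target. Virus was removed on day 6 in culture and cells were lysed on day 10. The series asks whether these depletions change transcription alike and whether they do so differently in males and females.

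Calcium channels let calcium enter on depolarization and so couple electrical activity to transmitter release, contraction and transcription. Each has a pore-forming alpha1 subunit (Cacna1 genes), an intracellular beta subunit (Cacnb genes) and an extracellular alpha2delta subunit (Cacna2d genes), and the last pair set trafficking and gating. Sodium channels start and carry the action potential through an alpha pore (most Scn genes ending in a), with single-span beta subunits (Scn genes ending in b) that tune gating and bind cell-adhesion partners. HCN channels open on hyperpolarization and carry the pacemaker-like current that limits dendritic summation. In forebrain, Scn3a is the embryonic sodium pore, and Scn2a, Scn8a and Scn1a take over as neurons mature.

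Named-gene counts per library ranged from 13634872 to 66074822 (median 31494162), and 16145 genes were tested. Where nothing says that the 3 libraries of a group came from separate cultures, p-values measure only the spread between these libraries, which may be technical, since the protocol speaks of triplicate wells. The targeted gene was lower than in nontargeting libraries after every shRNA, from 0.229 of the nontargeting level (Dnmt3a) to 0.452 (Kdm6b). In 2 male libraries the target gene did not match the label. Setd5 in the library labelled Setd5 male replicate 1 stood at 141 CPM (the read count scaled to library size), while the other Setd5 male libraries had 42.9 and 42.7. The library labelled Kdm6b male replicate 1 had Setd5 at 44.9 CPM and Kdm6b at 39.9 CPM, against 17.2 CPM of Kdm6b in each of the other Kdm6b male libraries. Results were also computed without these libraries and without Setd5 female replicate 1, which stood apart in earlier work on these data. On the first principal component (17.5% of the variance) female replicate 1 lay between -76.3 and -29.1 in all 11 treatments and female replicate 2 between 26.5 and 46.9. Neuron markers (Map2, Tubb3, Rbfox3, Snap25, Syt1) summed to at least 3558 CPM in every library, microglial markers to at most 3.56 CPM and vascular markers to at most 2.42 CPM. Astrocyte markers were present and varied widely between libraries, summing to 40.6 to 300 CPM. Oligodendrocyte lineage markers summed to 22.7 to 42.2 CPM.

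In nontargeting cultures, 26 of the 36 channel genes formed a broad expressed range and 10 lay far below it. Levels between genes are compared as CPM per kilobase of merged exon (GENCODE M21, GRCm38). Scn3b, a sodium channel beta subunit, was highest at 41.5 ± 2.79 CPM per kilobase (SD, n = 6), above every library of the next gene. Cacnb3 was at 30.5 ± 3.35 and Hcn2 at 26.6 ± 3.20. From Cacnb3 down to Scn2b (18.2 ± 0.989) each gene's libraries overlapped those of its neighbour in the order, as they did from Cacna2d2 (11.5 ± 2.39) down to Cacnb2 (2.30 ± 0.629). Among the sodium pores the order was Scn2a (23.2 ± 3.45), Scn8a (8.32 ± 1.81), Scn3a (7.32 ± 0.522) and Scn1a (6.58 ± 1.49), and Hcn2 and Hcn3 (19.95 ± 1.88) lay above Hcn4 (4.29 ± 0.823). The gap below Cacnb2 led to Scn9a at 0.273 ± 0.0417 CPM per kilobase. Below it came Cacna1s, Scn4b (0.185 ± 0.0685), Cacna1f (0.0771 ± 0.0200), Cacna2d4, Scn7a, Scn11a, Scn4a and Scn10a, which include the pores of skeletal muscle, retina and sensory neurons. Scn4a had no count in 37 of 66 libraries and Scn10a none in 25.

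**Figure D1:**
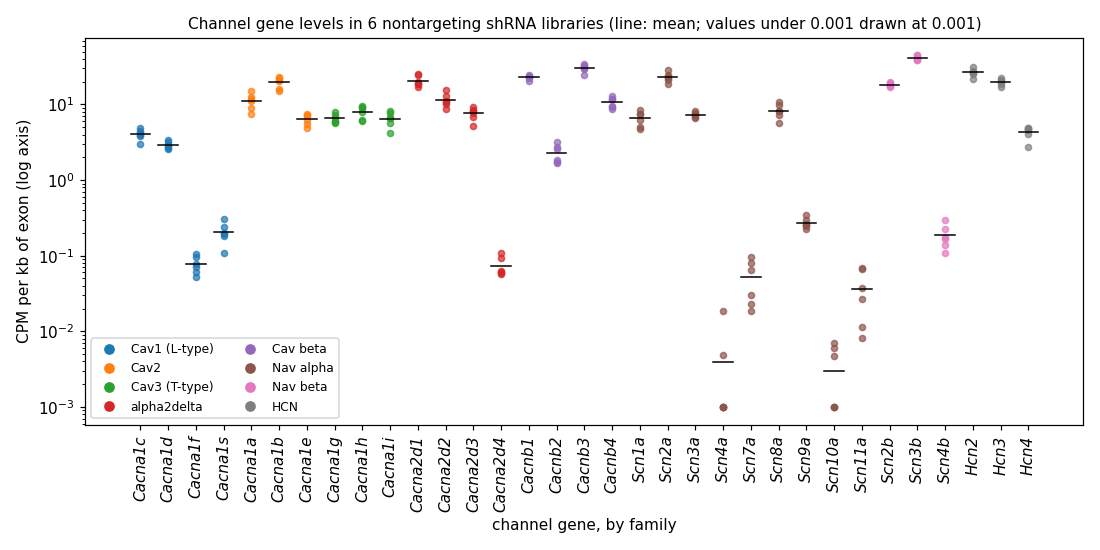
Level of each of 33 channel genes in the 6 nontargeting shRNA libraries (y axis: CPM per kilobase of exon, log axis; points are libraries, lines are means, colours are families). Scn3b lies highest at 41.5, Cacnb2 at 2.30 closes the expressed range, and 9 of the genes shown lie at or below 0.273.

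Against nontargeting shRNA, with the sexes averaged (6 libraries against 6), 15 of the 35 tested channel genes changed after at least 1 knockdown and 20 after none. A change, or call, means an adjusted p under 0.05 by edgeR's quasi-likelihood F test with Benjamini-Hochberg adjustment over all 16145 genes. Unless stated, calls come from this main fit, which has no term for replicate number. With such a term further channel genes were called (below). There were 25 calls, 6 higher and 19 lower, and all 6 higher calls were on sodium channel beta subunits. After Chd8 shRNA 9 channel genes changed (1 higher, 8 lower), where 22.3% of all genes did (9.85% higher, 12.5% lower). After Med13l shRNA 8 changed (1 higher, 7 lower), where 24.1% of all genes did (11.8% higher, 12.3% lower). Dnmt3a shRNA changed 3 (1 higher, 2 lower), with 1.4% of all genes called (0.477% higher, 0.923% lower). Ash1l shRNA changed 3 (2 higher, 1 lower), with 6.16% of all genes called (2.67% higher, 3.49% lower). Mbd5 shRNA raised 1 (0.663% of all genes called, 0.0991% higher) and Tbr1 shRNA lowered 1 (1.33% called, 1.08% lower). As shares of the 35 tested channel genes these are 25.7% for Chd8, 22.9% for Med13l, 8.57% for Ash1l and Dnmt3a, and 2.86% for Mbd5 and Tbr1, and the Chd8, Med13l and Ash1l shares lie near their backgrounds. The 6 libraries did not overlap the nontargeting ones for 7 channel genes after Chd8 (12.4% of all genes), 5 after Med13l (10.2%), 3 after Ash1l (4.53%) and Dnmt3a (1.72%), 2 after Tbr1 (1.83%) and 1 after Mbd5 (1.31%).

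In the main fit by edgeR, no channel gene was called after Kdm6b shRNA (0.966% of all genes called), Kmt2c shRNA (0.694%) or Setd5 shRNA (5.3%). At an unadjusted p under 0.05 there were 4 after Kdm6b (11.5% of all genes), 0 after Kmt2c (6.88%) and 4 after Setd5 (17.7%). DESeq2 called none after any of these 3 (2.36%, 1.01% and 6.81% of all genes). Without the pair of mismatched libraries and Setd5 female replicate 1, Kdm6b had 0 calls (1.38% of all genes) and Setd5 had 1, Cacna2d4 (4.92% of all genes). Leaving out the library labelled Setd5 male replicate 1 alone gave 1 call after Setd5, Cacnb2. The median log2 fold change over the tested channel genes was -0.16 after Chd8, -0.20 after Med13l and -0.15 after Dnmt3a, where the median over all genes lay between -0.01 and 0.01 in all 9 comparisons. Over the channel genes it lay between -0.08 (Kmt2c) and 0.07 (Kdm6b) after the other shRNAs. All 9 comparisons share the nontargeting libraries, so their values for a gene are set side by side and are not independent.

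**Figure D2:**
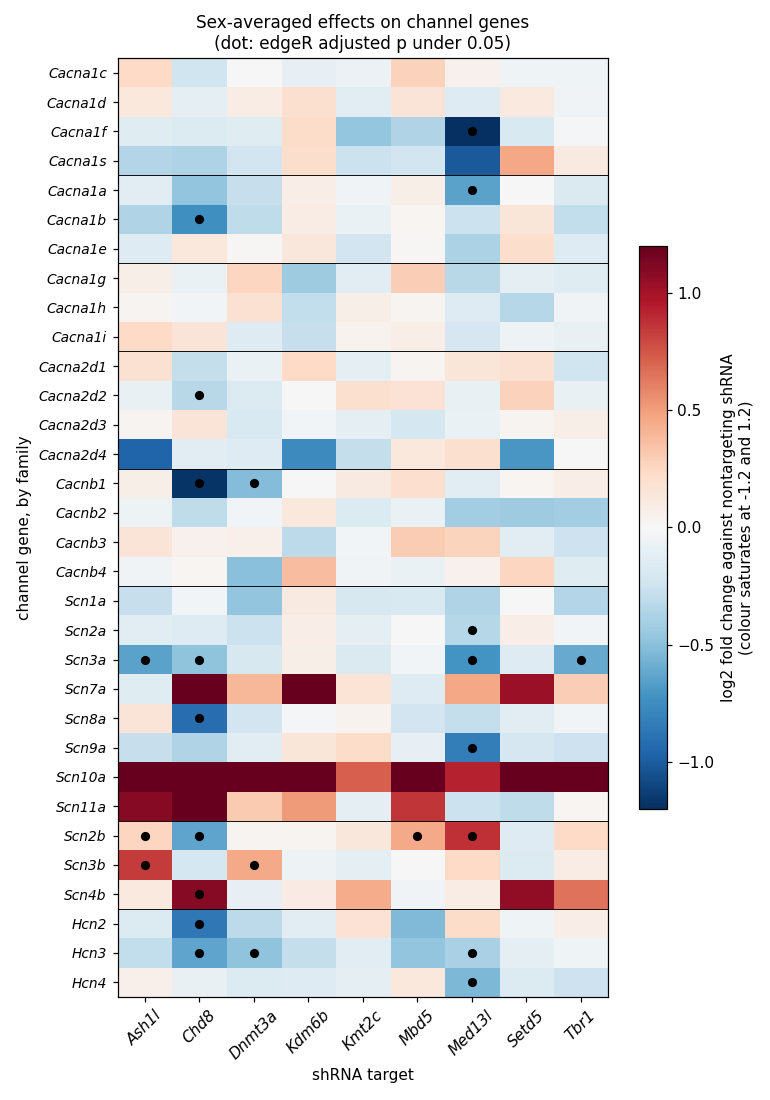
Sex-averaged log2 fold change of 32 tested channel genes (rows, by family) after each of 9 shRNAs (columns) against nontargeting shRNA; dots mark an edgeR adjusted p under 0.05. All 6 higher dots lie on Scn2b, Scn3b or Scn4b, and Scn7a, Scn10a, Scn11a and Cacna2d4, without dots, rest on few counts.

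In 4 of the knockdowns whose replicate numbers pair with the nontargeting libraries, a fit with the replicate number as a block moved the count by over 1.5 times. Dnmt3a then had 8 calls (1 higher, 7 lower, where 6.97% of all genes were called), which included Cacna1b (log2 fold change -0.32), Cacnb4 (-0.52), Hcn2 (-0.35) and Scn1a (-0.48). Mbd5 had 4 (3.32% of all genes), adding Cacnb3 (0.31), Hcn2 (-0.56) and Hcn3 (-0.49). Tbr1 had 4 (6.57% of all genes), adding Scn2b (0.24), Cacna1b (-0.28) and Cacnb3 (-0.26). Setd5 had 4 (16.2% of all genes), namely Scn4b (1.08), Cacna2d2 (0.28), Cacnb4 (0.25) and Cacna1h (-0.35). With the block, Chd8 had 12 calls (36.9% of all genes), adding Cacna1a (-0.49), Cacna2d1 (-0.29) and Scn3b (-0.21), and Kmt2c had 0 (2.97%). The block also added calls after Ash1l, Kdm6b and Med13l, where not all pairs met the rule for pairing (counts further on). After Kdm6b these were Cacna1g (-0.44), Cacnb3 (-0.32), Cacnb4 (0.37) and Hcn3 (-0.29), where 7.87% of all genes were called.

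Scn2b, which encodes a beta subunit that links disulfide-bonded to sodium pores and to adhesion partners, changed after 4 knockdowns, in both directions. The gene lies at chr9:45117782-45130070 on the plus strand. In nontargeting libraries its level ranged from 80.3 to 91.8 CPM (median 83.9), and in no virus libraries from 79.1 to 88.3 (median 83.1). After Med13l shRNA it ranged from 145 to 175 CPM (median 151) and after Mbd5 shRNA from 107 to 138 (median 113). After Ash1l shRNA it ranged from 91.9 to 110 CPM (median 104), and after Chd8 shRNA from 47.1 to 66.1 (median 53.5). None of these 4 sets of 6 libraries overlapped the nontargeting set, and the lowest Ash1l library stood just above it. The log2 fold changes were 0.87 ± 0.07 (SE) after Med13l (edgeR adjusted p = 7.47e-14), 0.46 ± 0.07 after Mbd5 (5.92e-05), 0.26 ± 0.07 after Ash1l (0.0151) and -0.64 ± 0.07 after Chd8 (7.03e-10). The Ash1l call was lost without Ash1l male replicate 2, nontargeting female replicate 3 or nontargeting male replicate 1, with adjusted p from 0.0567 to 0.0622, and at 0.0763 without the low-count filter. After Tbr1 shRNA Scn2b ranged from 94.5 to 108 CPM, also clear of the nontargeting libraries, with a log2 fold change of 0.24 and an edgeR adjusted p of 0.0774. That value passed the test with the replicate block (adjusted p = 0.0225), with DESeq2 and against no virus libraries.

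**Figure D3:**
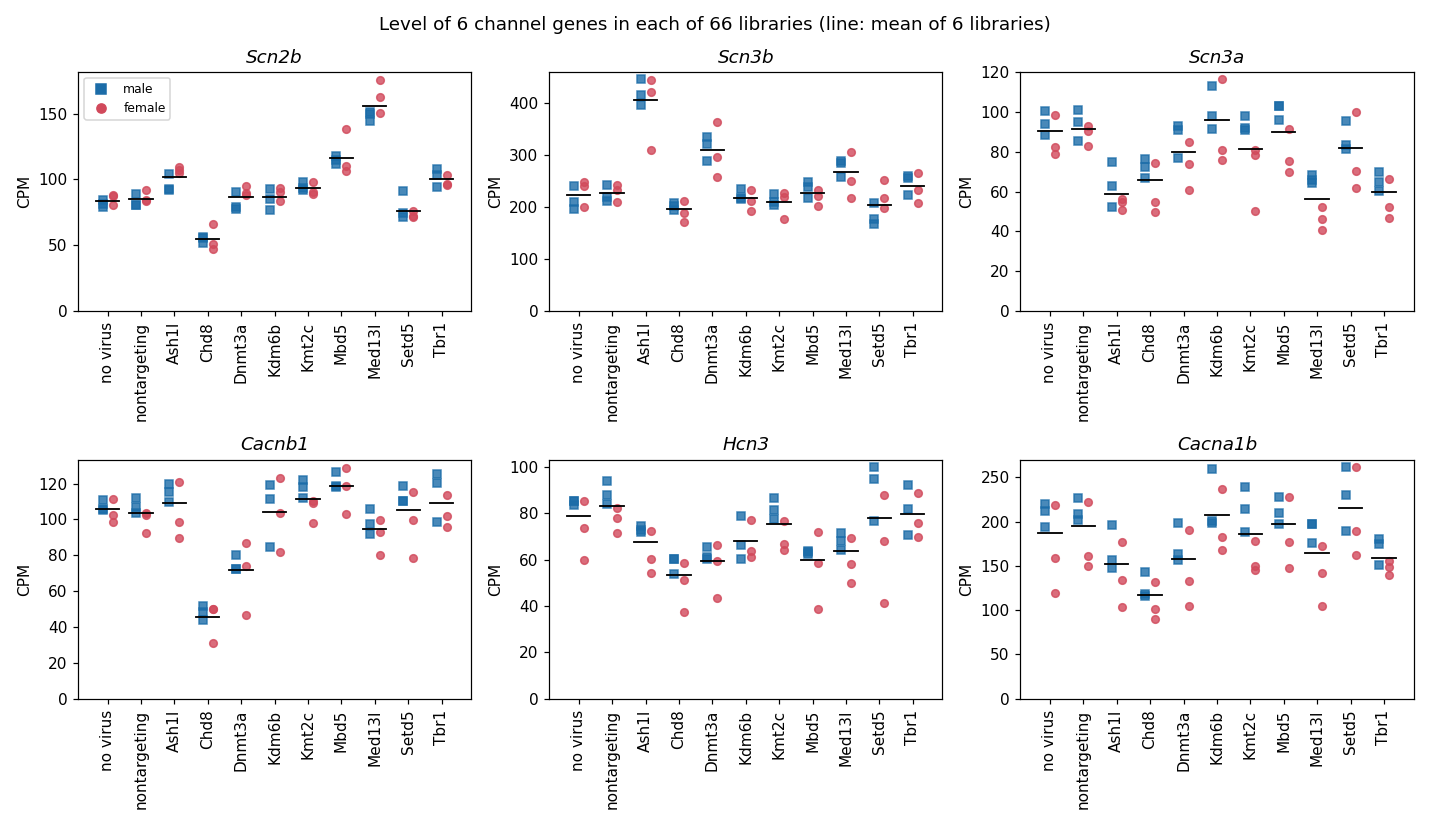
Level in CPM (y axis) of Scn2b, Scn3b, Scn3a, Cacnb1, Hcn3 and Cacna1b in each of 66 libraries by treatment (x axis; squares male, circles female, line the mean of 6). Scn2b is highest after Med13l (145 to 175) and lowest after Chd8 (47.1 to 66.1), Scn3b is highest after Ash1l, and Cacnb1 is lowest after Chd8.

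The promoter sequences below are shown because Scn2b, Hcn2 and Cacna1b were each higher after Med13l than after Chd8 shRNA when these were compared directly (values further on). They were chosen after the values were seen, from 8 channel genes that were higher after Med13l. Cacna2d1, also among the 8, had a window of 250 bases with 36 CG that is not printed here. A RefSeq window (GRCm38.p6) was found for 26 of the 36 members. Each run holds the bases upstream of both the RefSeq start and the GENCODE M21 gene start, on the gene's strand from 5′ to 3′. CG dinucleotides, a site of DNA methylation that reads the same on both strands, are in capitals. Scn2b covers chr9:45117626-45117781 (plus strand), Hcn2 chr10:79716384-79716633 (plus strand) and Cacna1b chr2:24763153-24763402 (minus strand).
Scn2b: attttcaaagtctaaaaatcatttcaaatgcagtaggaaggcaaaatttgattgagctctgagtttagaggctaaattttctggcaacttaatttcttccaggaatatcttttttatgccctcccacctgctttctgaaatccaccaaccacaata
Hcn2: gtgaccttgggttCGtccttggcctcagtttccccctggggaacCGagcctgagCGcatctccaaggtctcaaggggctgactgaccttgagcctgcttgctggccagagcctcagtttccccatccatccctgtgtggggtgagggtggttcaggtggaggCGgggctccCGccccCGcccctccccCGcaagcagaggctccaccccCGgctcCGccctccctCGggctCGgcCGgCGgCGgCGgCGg
Cacna1b: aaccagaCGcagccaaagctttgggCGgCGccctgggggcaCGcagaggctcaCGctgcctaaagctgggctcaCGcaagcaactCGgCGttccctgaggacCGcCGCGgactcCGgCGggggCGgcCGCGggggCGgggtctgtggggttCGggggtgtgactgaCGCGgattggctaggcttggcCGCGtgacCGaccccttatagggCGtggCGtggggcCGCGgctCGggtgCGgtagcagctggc
The 156 bases of Scn2b hold 0 CG, as do 15.2% of all promoter windows cut to the same length. The 250 bases of Hcn2 hold 16 CG, and 25.4% of all windows hold at least as many. The 250 bases of Cacna1b hold 29 CG, which 6.78% of all windows reach. Methylation was not measured in these libraries.

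Scn3b, the most abundant channel gene per kilobase and a noncovalently bound beta subunit, rose after 2 knockdowns. It lies at chr9:40269217-40291618 on the plus strand. Its level was 211 to 244 CPM (median 226) in nontargeting libraries and 197 to 248.9 CPM (median 226) without virus. After Ash1l shRNA it was 311 to 446 CPM (median 419) and after Dnmt3a shRNA 258 to 363 CPM (median 309), and neither set overlapped the nontargeting libraries. The log2 fold changes were 0.84 ± 0.09 (edgeR adjusted p = 2.64e-09) and 0.45 ± 0.09 (0.00335). The Dnmt3a call was at adjusted p = 0.0748 when only the 12 libraries compared were fitted.

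Scn4b, a beta subunit of chr9:45138395-45154152 that supplies the blocking particle of resurgent sodium current, lies 8.324 kb downstream of Scn2b with no protein-coding gene between. It was low. It had 16 to 48 counts in nontargeting libraries (0.535 to 1.495 CPM, median 0.859) and 32 to 130 after Chd8 shRNA (0.856 to 4.03 CPM, median 1.75), and these sets overlapped. The log2 fold change was 1.10 ± 0.40 (edgeR adjusted p = 0.0380). That call held only when the library left out was Chd8 female replicate 2 or 3, Chd8 male replicate 1, nontargeting female replicate 1 or nontargeting male replicate 3, and the adjusted p was 0.0593 to 0.253 without each of the other 7. Without Chd8 female replicate 1 the log2 fold change of Scn4b was 0.71.

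Scn3a, the sodium pore of embryonic and neonatal neurons, fell after 4 knockdowns. It lies at chr2:65457118-65567627 on the minus strand, 53.1 kb from Scn2a. Its level was 82.8 to 101 CPM (median 91.7) in nontargeting libraries and 78.7 to 100.3 CPM (median 91.2) without virus. It was 40.6 to 68.3 CPM (median 58.2) after Med13l, 50.9 to 74.8 (median 55.4) after Ash1l, 46.8 to 69.6 (median 62.5) after Tbr1 and 49.6 to 76.6 (median 69.6) after Chd8 shRNA. All 24 of these libraries lay below the lowest nontargeting library. The log2 fold changes were -0.72 ± 0.12 after Med13l (edgeR adjusted p = 5.27e-06), -0.64 ± 0.12 after Ash1l (0.000119), -0.61 ± 0.12 after Tbr1 (0.00121) and -0.48 ± 0.12 after Chd8 (0.00157). These calls held without any 1 library and against no virus. After the other 5 shRNAs the log2 fold change of Scn3a was between -0.19 and 0.07.

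The other sodium pores changed after single knockdowns. Scn8a, the mature pore of the axon initial segment and nodes, was 90.4 to 171 CPM (median 129) in nontargeting libraries and 60.3 to 76.1 CPM (median 68.5) after Chd8 shRNA. These libraries did not overlap, and the log2 fold change was -0.92 ± 0.18 (edgeR adjusted p = 0.000147). Scn9a, best known from sensory neurons, was 2.92 to 4.38 CPM (median 3.34) in nontargeting libraries and 1.48 to 2.56 CPM (median 1.95) after Med13l shRNA, at a log2 fold change of -0.83 ± 0.18 (0.000507). Its exons overlap those of Gm13629 on the opposite strand. Scn2a, the main pore of young excitatory neurons, was 238 to 368 CPM (median 292) in nontargeting libraries and 148 to 268 CPM (median 245) after Med13l shRNA, and these sets overlapped. Its log2 fold change was -0.34 ± 0.12 (edgeR adjusted p = 0.0338). The Scn2a call held only when the library left out was Med13l female replicate 2, Med13l male replicate 3 or nontargeting female replicate 1 or 3, with adjusted p from 0.0524 to 0.211 without each of the other 8, and at 0.0568 against no virus. Scn1a, Scn7a, Scn10a and Scn11a were not called after any shRNA in the main fit. With the replicate block, Scn1a was called after Dnmt3a and Med13l shRNA, and Scn10a, on few counts, after Ash1l shRNA. For Scn1a, the only one of these 4 in the expressed range, the log2 fold changes ran from -0.48 to 0.11 (smallest edgeR adjusted p = 0.167).

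HCN genes were called 5 times, each time lower. Hcn3 (chr3:89146074-89160196, minus strand) was 71.5 to 93.9 CPM (median 83.1) in nontargeting libraries and 59.9 to 85.4 CPM (median 84.2) without virus. It was 37.4 to 60.4 CPM (median 56.1) after Chd8, 43.6 to 66.2 (median 60.7) after Dnmt3a and 50.0 to 71.6 (median 66.1) after Med13l shRNA. The first 2 sets lay below every nontargeting library, and the Med13l set touched it. The log2 fold changes of Hcn3 were -0.63 ± 0.13 after Chd8 (edgeR adjusted p = 0.000157), -0.48 ± 0.13 after Dnmt3a (0.0372) and -0.38 ± 0.13 after Med13l (0.0216). It was below 0 after all 9 shRNAs, from -0.63 to -0.05. The Dnmt3a call held only when the library left out was Dnmt3a female replicate 2 or nontargeting female replicate 1 (adjusted p from 0.0558 to 0.232 without each of the other 10). The Med13l call was at 0.0929 without Med13l female replicate 1 and 0.0525 without Med13l male replicate 3. Against no virus the Hcn3 calls after Dnmt3a and Med13l were at adjusted p = 0.105 and 0.0681. Exons of Hcn3 overlap those of Pklr on the opposite strand, and the strand setting of the authors' counting is not given in the sources used here.

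Hcn2, the HCN gene with the highest level per kilobase, was 70.0 to 101 CPM (median 83.7) in nontargeting libraries and 22.9 to 60.6 CPM (median 50.2) after Chd8 shRNA, with no overlap. Its log2 fold change was -0.86 ± 0.18 (edgeR adjusted p = 0.000305). Hcn4, the main cardiac pacemaker subunit, was 16.6 to 29.5 CPM (median 28.5) in nontargeting libraries and 12.9 to 23.9 CPM (median 18.1) after Med13l shRNA, and these sets overlapped. Its log2 fold change was -0.54 ± 0.17 (edgeR adjusted p = 0.0157). The adjusted p was 0.0693 without Med13l female replicate 1, 0.0530 without Med13l male replicate 2 and 0.0834 without nontargeting female replicate 2.

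Among calcium channel pores, 3 changed and 7 did not pass the test after any shRNA. Cacna1b, the N-type pore of presynaptic terminals (chr2:24603887-24763152, minus strand), was 150.1 to 227 CPM (median 205) in nontargeting libraries and 90.3 to 143 CPM (median 117) after Chd8 shRNA, with no overlap. Its log2 fold change was -0.74 ± 0.15 (edgeR adjusted p = 0.000113). Cacna1a, the P/Q-type presynaptic pore, was 85.6 to 174 CPM (median 130) in nontargeting libraries and 46.8 to 110.3 CPM (median 85.3) after Med13l shRNA. Its log2 fold change was -0.64 ± 0.23 (edgeR adjusted p = 0.0368), and after Chd8 shRNA it was -0.47 (0.144). With the replicate block the Chd8 value was -0.49 and was called (adjusted p = 8.54e-05). The Cacna1a call after Med13l held only when the library left out was Med13l female replicate 2, nontargeting female replicate 1 or 3 or nontargeting male replicate 2 (adjusted p from 0.0545 to 0.200 without each of the other 8), and was at 0.0593 against no virus.

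Cacna1f, an L-type pore known from photoreceptor synapses (chrX:7607083-7635196, plus strand), had 12 to 51 counts in nontargeting libraries and 4 to 13 after Med13l shRNA. These are 0.472 to 0.950 CPM (median 0.679) against 0.127 to 0.406 CPM (median 0.186), with no overlap. The log2 fold change was -1.60 ± 0.37 (edgeR adjusted p = 0.00101), at a level where counting error is large. The call held without any 1 library. The other L-type pores, Cacna1c, Cacna1d and Cacna1s, the R-type pore Cacna1e and the T-type pores Cacna1g, Cacna1h and Cacna1i were not called in the main fit. With the replicate block, Cacna1e, Cacna1g and Cacna1s were called after Med13l, Cacna1g after Kdm6b and Cacna1h after Setd5 shRNA, each lower. Over the T-type genes, which open near rest, the log2 fold changes lay between -0.43 and 0.30 in all 9 comparisons.

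The auxiliary calcium channel subunits changed at 2 genes. Cacnb1, a beta subunit known from the skeletal muscle channel and also expressed in neurons (chr11:98001508-98023034, minus strand), was 92.5 to 112 CPM (median 104) in nontargeting libraries and 98.8 to 111 CPM (median 105) without virus. It was 31.4 to 51.6 CPM (median 49.1) after Chd8 shRNA and 46.5 to 87.0 CPM (median 73.1) after Dnmt3a shRNA, with no overlap in either case. The log2 fold changes were -1.17 ± 0.11 (edgeR adjusted p = 8.82e-12) and -0.52 ± 0.11 (0.00529). The Dnmt3a call was at adjusted p = 0.0668 without Dnmt3a female replicate 1 and at 0.110 with only the 12 libraries compared. Skeletal muscle markers (Acta1, Myh3, Ckm) summed to 3.86 to 5.62 CPM in nontargeting and 4.47 to 7.76 CPM in Chd8 libraries. Cacnb2, Cacnb3 and Cacnb4 were not called after any shRNA in the main fit, with log2 fold changes from -0.31 to 0.05 after Chd8. Of the alpha2delta genes, Cacna2d2 was 69.1 to 122.97 CPM (median 86.8) in nontargeting and 58.1 to 104 CPM (median 68.4) in Chd8 libraries, which overlapped. Its log2 fold change was -0.33 ± 0.12 (edgeR adjusted p = 0.0375). That call held only when the library left out was Chd8 female or male replicate 2, nontargeting female replicate 3 or nontargeting male replicate 1, with adjusted p from 0.0638 to 0.155 without each of the other 8.

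Med13l and Chd8 shRNA were compared directly, without the nontargeting libraries. Between them 14 channel genes differed, 8 higher and 6 lower after Med13l, where 36.9% of all genes differed (18.8% higher, 18.1% lower). Scn2b was 2.85-fold higher after Med13l (log2 difference 1.51 ± 0.07, edgeR adjusted p = 6.32e-23), Hcn2 2.12-fold higher (1.08 ± 0.18, 4.17e-06) and Cacnb1 2.06-fold higher (1.04 ± 0.11, 1.03e-10). The 6 libraries of each treatment did not overlap for any of the 3. The share of all genes without overlap was not computed for this comparison, so that separation cannot be weighed. Scn8a (0.63), Cacna1b (0.48), Scn3b (0.45) and Cacna2d1 (0.43) were also higher after Med13l. Lower after Med13l were Cacna1f (-1.44), Cacna1e (-0.51), Scn11a (-1.53), Scn4b (-1.01), Scn9a (-0.48) and Hcn4 (-0.45). Scn11a had 2 to 8 counts per Med13l library and 7 to 26 per Chd8 library. Scn3a, lower than nontargeting after both shRNAs, was not among the 14.

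The calls with the widest margins in this direct comparison, on Scn2b, Hcn2, Cacnb1, Scn3b, Cacna1f, Cacna1e, Scn8a and Cacna1b, held without any 1 of the 12 libraries. Without female replicate 1 of all groups, an alternative chosen after seeing the data, Cacna1e was at -0.36 with adjusted p = 0.0758. Another 5 were each lost without several libraries. Cacna2d1 held only without Chd8 female replicate 2, Chd8 male replicate 3, Med13l female replicate 1 or Med13l male replicate 1 or 2 (0.0865 to 0.166 otherwise). Hcn4 held only without Chd8 female replicate 1, Chd8 male replicate 1 or 2, Med13l female replicate 2 or Med13l male replicate 3 (0.0610 to 0.144 otherwise). Scn11a held only without Chd8 female replicate 3, Chd8 male replicate 2, Med13l female replicate 1 or Med13l male replicate 3 (0.0504 to 0.0983 otherwise). Scn4b held only without Chd8 female replicate 2 or 3, Chd8 male replicate 1, Med13l female replicate 1 or Med13l male replicate 2 (0.0562 to 0.253 otherwise), and its log2 difference was -0.61 without Chd8 female replicate 1. Scn9a held only without Chd8 female replicate 1 or 2, Chd8 male replicate 3, Med13l female replicate 2 or Med13l male replicate 2 (0.0572 to 0.136 otherwise).

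**Figure D4:**
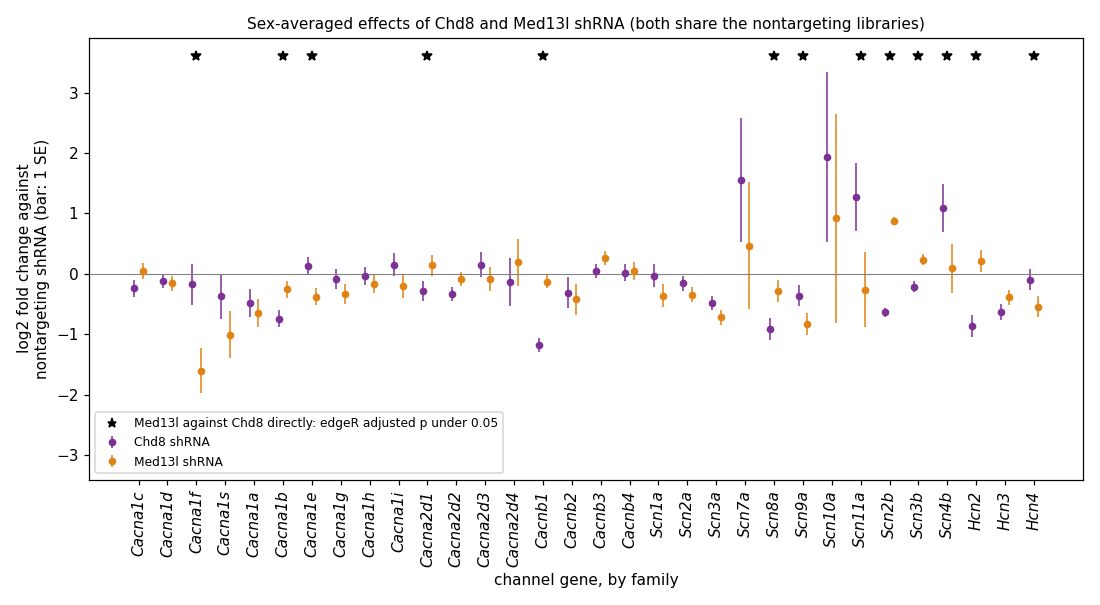
Sex-averaged log2 fold change against nontargeting shRNA (y axis, bars 1 SE) of 32 tested channel genes (x axis, by family) after Chd8 and after Med13l shRNA; stars mark genes that differed between the 2 treatments directly. Scn2b lies at -0.64 after Chd8 and 0.87 after Med13l, while Scn3a lies below 0 after both.

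The effects on channel genes did not differ detectably between the sexes. All 25 calls had the same sign in males and in females, though these calls were chosen on the average of both sexes. Of 315 tests of the difference between male and female effects (35 genes, 9 shRNAs), 0 passed the threshold in edgeR and 0 had an unadjusted p under 0.05, and DESeq2 also gave 0. Over all genes, 0% were called in 8 of these comparisons and 0.0186% for Setd5. An unadjusted p under 0.05 was found for 0.409% to 0.948% of all genes in those 8 and 2.72% for Setd5. Without any difference a well-calibrated test would give a share of about 0.05. The test was thus conservative, and its 0 calls do not show that the sexes respond alike. The largest differences among called genes were for Cacna1f after Med13l shRNA (-0.97 ± 0.51 in males, -2.23 ± 0.54 in females) and Scn3a after Med13l shRNA (-0.50 ± 0.16 in males, -0.94 ± 0.17 in females). Scn2b after Med13l shRNA was at 0.84 ± 0.10 in males and 0.91 ± 0.10 in females, and Cacnb1 after Chd8 shRNA at -1.16 ± 0.16 and -1.18 ± 0.16. With 3 libraries per group these intervals leave room for moderate differences.

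**Figure D5:**
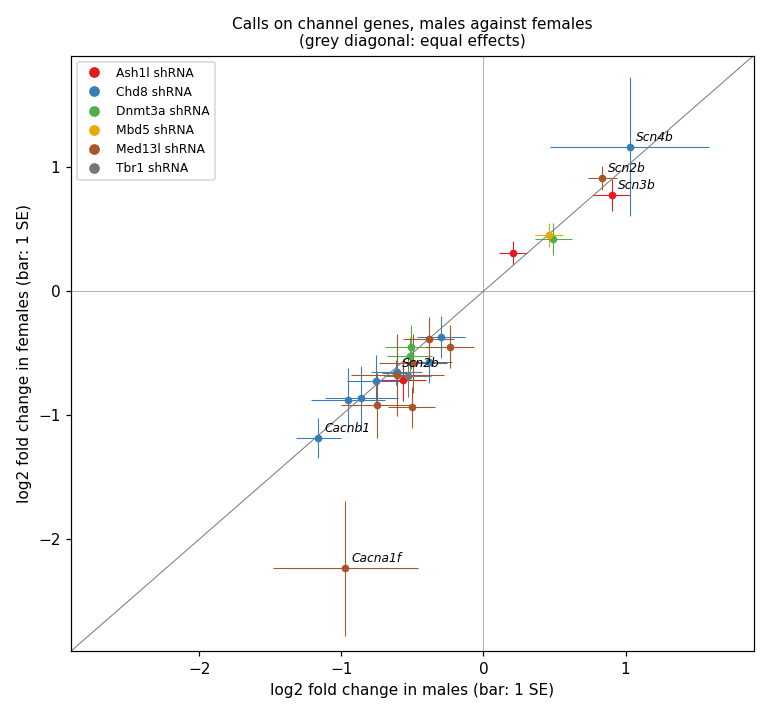
Log2 fold change in males (x axis) against females (y axis), bars 1 SE, for the 25 calls on channel genes, coloured by shRNA; the grey diagonal marks equal effects. All 25 points lie in the quadrants of equal sign, and Cacna1f after Med13l shRNA lies farthest from the diagonal (-0.97, -2.23).

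Infection with the nontargeting virus gave no call on a channel gene. Against no virus 0 of 35 were called by edgeR, as were 0% of all genes, and 1 channel gene had an unadjusted p under 0.05 (0.7% of all genes). That share is well below the 0.05 of a well-calibrated test without any change, so small changes could go undetected. DESeq2 called 0 channel genes (0.00416% of all genes). With no virus in place of nontargeting libraries as the control, 21 of the 25 calls held, the exceptions being Hcn3 after Dnmt3a and Hcn3, Scn2a and Cacna1a after Med13l.

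Genes listed as partners or regulators of these channels, with 5 genes of the separate sodium leak channel complex, made a list of 36. Of these 35 were tested. After Chd8 shRNA 4 rose and 7 fell, and after Med13l shRNA 2 rose and 6 fell. After Ash1l shRNA 1 rose and 3 fell, after Kdm6b and Setd5 shRNA 1 fell, and after the other 4 shRNAs none was called. Of all genes 22.3% were called after Chd8, 24.1% after Med13l, 6.16% after Ash1l, 0.966% after Kdm6b and 5.3% after Setd5. The strongest after Chd8 were Fgf12 (log2 fold change -1.64, edgeR adjusted p = 1.15e-16) and Fgf11 (-1.15, 1.18e-07), which encode intracellular factors that bind the sodium pore, and Pex5l (1.09, 4.52e-06), which encodes an HCN-binding protein. After Med13l they were Fgf14 (-0.89, 2.54e-07), of the same factor family, Nalf2 (0.96, 4.26e-06), a subunit of the sodium leak channel, and Nedd4l (-0.56, 1.46e-05), a ubiquitin ligase that acts on sodium pores. After Ash1l they were Cacng7 (-0.91, 5.86e-07) and Cacng2 (-0.85, 8.52e-05), of the gamma subunit family, and Unc80 (-0.67, 0.00250) of the leak channel complex. Nalf1, another leak channel subunit, fell after Kdm6b (-0.61, 0.00532) and Setd5 shRNA (-0.45, 0.0167).

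Markers of cell classes moved in some of the same comparisons. Of all genes 22.3% were called after Chd8, 24.1% after Med13l, 6.16% after Ash1l, 5.3% after Setd5, 1.4% after Dnmt3a and 0.966% after Kdm6b. The inhibitory neuron markers Gad1, Gad2 and Slc32a1 fell 3 of 3 after Ash1l shRNA, where they summed to 463 to 712 CPM against 927 to 1467 CPM in nontargeting libraries. After Chd8 and Med13l shRNA 2 of the 3 fell (summed range 823 to 1131 and 603 to 1224 CPM), and after Dnmt3a and Setd5 shRNA 1 of the 3. Of 5 neuron markers, 2 fell (Map2, Syt1) and 1 rose (Tubb3) after Chd8, and Syt1 fell after Med13l, where 22.3% and 24.1% of all genes were called. The neuron markers summed to 3558 to 4235 CPM after Med13l, all below the nontargeting range of 4756 to 5415 CPM, and to 4154 to 4845 CPM after Chd8, which overlapped it. Of the excitatory markers (Slc17a7, Slc17a6, Neurod6), 2 fell after Chd8, 1 rose after Ash1l and after Med13l, and 1 fell after Kdm6b. Of 5 astrocyte markers, Gfap fell after Chd8 and rose after Dnmt3a, and Aqp4 and Gja1 fell after Med13l. The part of these shifts in the channel gene results was not tested, and in such bulk RNA fewer cells of a type and less RNA per cell cannot be told apart.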

How the data were processed

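The authors deposited 1 table of whole-number read counts per gene, made with STAR and featureCounts on mm10 per the submitters' processing notes. Versions, strand setting and annotation are not given in the sources used here. Of the counts between 1 and 20, 26.7% were odd and of those of at least 1000, 49.1%. Whether mates of a pair were counted singly was not tested, and halved counts were tried. Of 72 library columns 66 were used and 6 belong to no sample used here. The control columns carry a luciferase hairpin name and were matched to the nontargeting labels. Rows without a symbol (18483, with 0.690% to 1.41% of a library's counts) were left out, and 149 rows repeating a symbol were summed.

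Counts were fitted in R 4.3.3 with edgeR 4.0.16 (filterByExpr, TMM scaling, robust quasi-likelihood F test, 1 mean per treatment and sex over all 66 libraries). Each effect is the mean of the male and female differences, and p-values were Benjamini-Hochberg adjusted over 16145 genes. The SE comes from the test statistic. CPM uses TMM-scaled library sizes, from total counts of 13634872 to 66074822. The test was checked on simulated counts. These held no shift shared by libraries of the same replicate number, so the check does not cover the replicate shifts seen here. Libraries of a group differed by a chi-square per gene of at least 7.92, so none was treated as a duplicate.

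The labels give every group replicates 1 to 3. Deviations from group means were correlated between same-numbered shRNA and nontargeting libraries. The correlation was over 0.1 in all 6 pairs for Chd8, Dnmt3a, Kmt2c, Mbd5, Setd5, Tbr1 and no virus, which were taken as paired. It was over 0.1 in 4 of 6 pairs for Ash1l, 4 of 6 for Kdm6b and 5 of 6 for Med13l. These 3 were not taken as paired, though their pairs of female replicates 1 and 2 correlated at 0.497 to 0.655. Members, families, partner and marker lists were chosen with earlier results of these data known. Per-library values are given for the 6 members called in most comparisons and for further called members with a log2 fold change of at least 1 in size. Other called members are given likewise. Partner genes are named at most 3 per comparison, by smallest adjusted p. Gene positions and exon lengths are from GENCODE M21, promoters from RefSeq. Alternatives were RLE scaling, no low-count filter, DESeq2 1.42.0, the replicate block, only the libraries compared, no virus as control, halved counts, single sexes, leaving out libraries and, added after seeing the data, leaving out female replicate 1 of all groups. Some members enter the counts and fits but their own values are not reported here.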

Additional observations from a re-analysis of the deposited data

How the results depend on the processing

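No call on a channel gene changed sign in any alternative. Of 39 calls (25 against nontargeting, 14 between Med13l and Chd8), 39 held with DESeq2, with halved counts, with the replicate block and without the libraries that did not match their labels or stood apart, 38 with RLE scaling, 32 without female replicate 1 of all groups and 30 without the low-count filter. Of the 25, 21 held against no virus and 19 with only the libraries compared. In single sexes, with fewer libraries, 16 held in males and 19 in females.

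Counts of calls moved as follows. Males alone gave 1 for Ash1l (1.98% of all genes called), 0 for Dnmt3a (0.111%), 2 for Med13l (8.06%), 0 for Tbr1 (0.217%) and 6 between Med13l and Chd8 (19.4%). Females alone gave 0 for Dnmt3a (0.118%), 0 for Mbd5 (0.0557%), 4 for Med13l (10.2%), 0 for Tbr1 (0.0619%) and 6 between Med13l and Chd8 (21.9%). The replicate block gave 8 for Dnmt3a and 4 each for Mbd5, Setd5 and Tbr1. Where not all 6 pairs met the rule for pairing, it gave 6 for Ash1l (17.2% of all genes called), 4 for Kdm6b (7.87%) and 19 for Med13l (41.5%). Between Med13l and Chd8, where pairing was not computed, it gave 24 (51.5%). The block ended no call and changed no other count by over 1.5 times. Only the libraries compared gave 0 for Dnmt3a (0.267% of all genes called). Without the doubted libraries Mbd5 had 2 (0.859%), Setd5 1 (4.92%) and Tbr1 2 (1.77%). Against no virus Setd5 had 1 (6.31%) and Tbr1 2 (1.69%). DESeq2 gave 2 for Mbd5 (1.09%) and 2 for Tbr1 (2.37%), and leaving out female replicate 1 gave 2 for Mbd5 (0.498%). The cause of these shifts was not tested, except that single sexes hold fewer libraries.

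Without the low-count filter, 9 calls missed the threshold with adjusted p from 0.0510 to 0.07725 (Scn2b after Ash1l, Cacna2d2 after Chd8, Hcn3 after Dnmt3a, Cacna1a and Scn2a after Med13l, and Cacna2d1, Scn11a, Scn4b and Scn9a between Med13l and Chd8). With only the libraries compared, 6 did, from 0.0527 to 0.111 (Cacna2d2 and Scn4b after Chd8, Scn2a after Med13l and the 3 after Dnmt3a). Without female replicate 1 of all groups, 7 did, from 0.0597 to 0.131 (Cacna2d2 and Scn4b after Chd8, Scn2a after Med13l, and Cacna1e, Cacna2d1, Scn11a and Scn4b between Med13l and Chd8).

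Leaving out 1 library at a time gave 2 to 4 for Ash1l, 7 to 10 for Chd8, 1 to 5 for Dnmt3a, 0 to 0 for Kdm6b and Kmt2c, 1 to 2 for Mbd5, 4 to 13 for Med13l, 0 to 1 for Setd5, 1 to 1 for Tbr1, 0 to 0 for nontargeting against no virus and 9 to 13 between Med13l and Chd8. For Dnmt3a the extremes came without Dnmt3a female replicate 1 (1) and 2 (5), and for Med13l without Med13l female replicate 1 (4) and 2 (13), with 5 without nontargeting female replicate 2. Between Med13l and Chd8 the 9 came without Med13l female replicate 3. The share of all genes called was not computed for fits that left out 1 library, so these counts cannot be weighed against it. Depth limits Scn4a, Scn7a, Scn10a, Scn11a, Cacna1f, Cacna2d4 and Scn4b, whose counts were few.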
